A study of Homo sapiens with 12 samples.

Results

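The sorafenib effect described here was measured over both backgrounds of a drug combination experiment in HDLM-2, an established human cell line derived from Hodgkin lymphoma. Cells were exposed for 24 hours, and their expression was read on 12 bead arrays (Illumina HumanHT-12 V3), 3 in each of 4 groups. The combination group received 100 nM givinostat, a histone deacetylase inhibitor, together with 5 µM sorafenib, which inhibits RAF kinases and several receptor tyrosine kinases. The givinostat group received 100 nM givinostat alone, the sorafenib group received 5 µM sorafenib alone, and the control group received neither drug. All groups shared the same cell line, the same serum-supplemented medium and the same time, so the results concern 1 cell line at 1 dose of each drug. The comparison set the 6 arrays with sorafenib (combination and sorafenib alone) against the 6 arrays without it (givinostat alone and control), with the presence of givinostat as a covariate, and so used 12 of 12 arrays. It asked which genes moved with sorafenib on average over cells that did and did not also receive givinostat. All 10529 genes with a named probe above background on the 3 arrays of at least 1 group were tested.

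RAF kinases pass growth signals through MEK to ERK, and ERK activity keeps immediate early genes such as FOS and EGR1 and feedback genes such as the DUSP phosphatases expressed. The integrated stress response is a separate program in which phosphorylation of the initiation factor eIF2 slows translation but favours the transcription factor ATF4, which switches on genes for amino acid synthesis, amino acid uptake and tRNA charging. Hodgkin lymphoma cells are known for constitutive NF-kappaB and JAK-STAT signalling and for secreting chemokines such as CCL17 and CCL22.

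Levels are given as log2 normalised intensity, and a change is the log2 level with sorafenib minus that without it, with its standard error (SE). A gene is said to have risen or fallen when limma's moderated test gave a p-value under 0.05 after Benjamini-Hochberg adjustment across the 10529 genes. The submitters' labels leave it unstated whether the arrays of a group came from separate cultures, so the p-values measure the spread between arrays, which may be technical, and the number of arrays limits their precision. Mean raw intensity ranged from 1033.78 to 1629.67 units, and 16382 to 17934 probes per array were above background (detection p under 0.05). Sorafenib array C had the lowest of both and deviated from its group mean by 0.221 log2 units (root mean square), against 0.147 to 0.175 for the other arrays. The first principal component, with 55.6% of the variance, separated arrays by givinostat, and the second, with 11.5%, separated arrays with sorafenib from arrays without it. All 7 markers chosen for Hodgkin Reed-Sternberg cells (TNFRSF8, TRAF1, IRF4, FSCN1, CCL17, CD40 and JUNB) were above background on every array. Of 70 markers of B, T, myeloid, erythroid, and stromal or epithelial cells 21 were tested and none was called by limma (lowest adjusted p = 0.0957), with 3 at an unadjusted p under 0.05. One of these, the B lineage gene IGLL1, was at -0.41 over both backgrounds, was called for sorafenib minus control (-0.73, limma adjusted p = 0.0335), and was called over both backgrounds without background correction (-0.31, limma adjusted p = 0.0420). Its part in other results was not tested.

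Sorafenib changed 803 of the 10529 genes (7.63%) over both backgrounds: 448 rose (4.25%) and 355 fell (3.37%). The list counts below are to be read beside these shares. The changes were small. Their median absolute size was 0.38 log2 units, 606 of the 803 were under 0.5, and only 14 genes (0.133%) changed at least 2-fold, 5 of them higher and 9 lower. That number was 1 without background correction and with the authors' processed values, and 5 for genes above background on all 12 arrays. The largest rises were those of ASS1, an enzyme of arginine synthesis, C4BPB, the beta chain of the complement regulator C4b-binding protein, and CYP4Z1, a cytochrome P450. The largest falls were those of KRTAP9-3, a keratin-associated protein gene, and FOS, an immediate early transcription factor. The 15 largest rises and 15 largest falls were picked among called genes whose arrays did not overlap in either background. For these genes separate arrays are a condition of the choice and no added support. Scaling the arrays to a common median in place of quantile normalization shifted the median gene by -0.07 and gave 154 rises and 225 falls, so that 40.6% of the calls were rises, against 55.8% with quantile normalization. Of the 803 calls 361 remained under that scaling, 153 higher and 208 lower, and none changed direction. Leaving out control array A, B or C reduced the count to 482, 522 and 527 genes, and 678 genes were called without sorafenib array C.

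**Figure D1:**
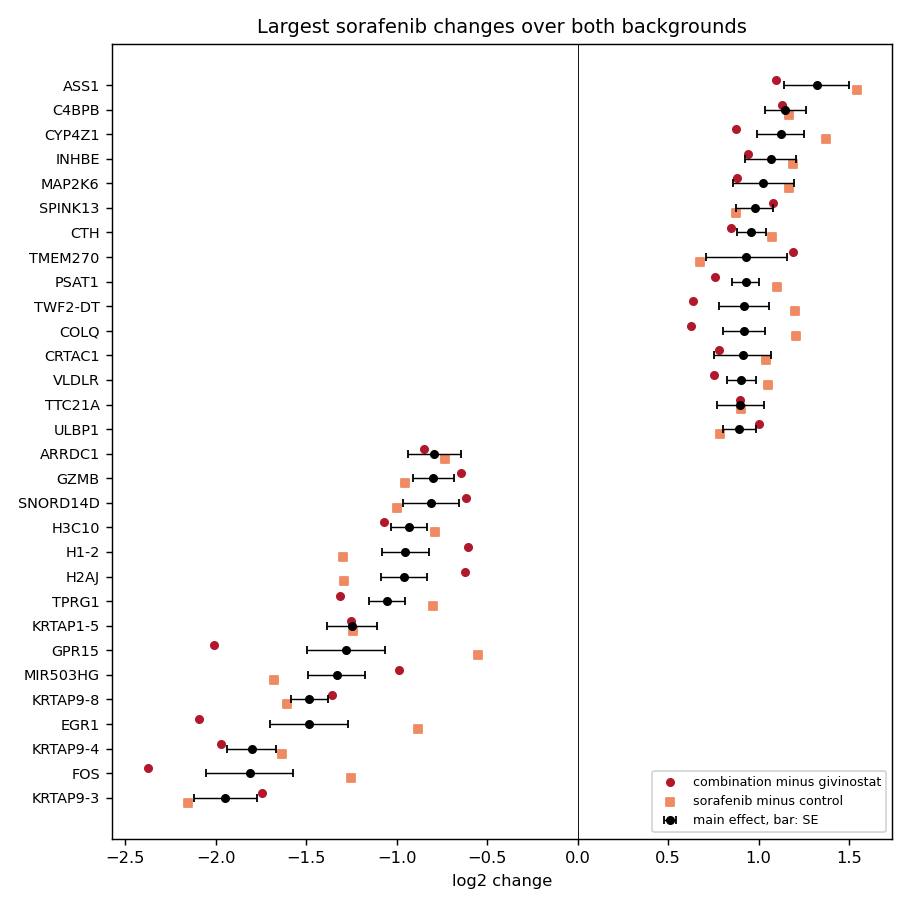
Largest sorafenib changes, by the naming rule of the 15 largest rises and 15 largest falls among called genes whose arrays with and without sorafenib did not overlap in either background. The horizontal axis is the log2 change. Black points with SE bars are the change over both backgrounds (6 arrays against 6), red circles the combination minus givinostat and orange squares sorafenib minus control (3 arrays each). ASS1 stands highest at 1.32 and KRTAP9-3 lowest at -1.95.

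Enzymes that make amino acids held several of the largest rises. Of 10 tested amino acid synthesis enzymes of the integrated stress response 7 rose and none fell, with a median change of 0.53, against -0.01 over all genes. The risers were ASNS, PSAT1, PSPH, MTHFD2, CTH, ASS1 and PCK2, and all 7 also rose without sorafenib array C. The list's median was 0.45 for the combination minus givinostat and 0.62 for sorafenib minus control. Under median scaling 6 of the 10 rose and the list's median was 0.43.

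ASNS, which makes asparagine from aspartate, had log2 intensities of 14.34, 14.35 and 14.41 on the combination arrays, against 13.63, 13.74 and 13.67 on the givinostat arrays. On the sorafenib arrays it had 14.42, 14.34 and 14.19, against 13.45, 13.20 and 13.36 on the control arrays. All 6 arrays with sorafenib lay above all 6 without it, and ASNS rose by 0.83 ± 0.08 (SE; limma adjusted p = 8.25e-05). PSAT1, the aminotransferase of serine synthesis, had 12.32, 12.40 and 12.45 in the combination group, against 11.59, 11.63 and 11.67 with givinostat. Its levels were 12.91, 12.82 and 13.03 with sorafenib alone, against 11.82, 11.80 and 11.83 in the control group. No array with sorafenib overlapped an array without it, and the change was 0.93 ± 0.07 (limma adjusted p = 4.49e-05). PSPH, which carries out the last step of serine synthesis, rose by 0.58 ± 0.09, and MTHFD2, a mitochondrial folate enzyme fed by serine, by 0.32 ± 0.07.

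CTH, which releases cysteine from cystathionine, had 11.48, 11.35 and 11.29 with the combination, against 10.65, 10.52 and 10.40 with givinostat. It had 11.11, 11.24 and 11.39 with sorafenib, against 10.07, 10.30 and 10.16 in control cells. The groups did not overlap, and CTH rose by 0.96 ± 0.08 (limma adjusted p = 4.96e-05). ASS1 had 7.53, 7.77 and 7.31 in the combination group, against 6.40, 6.52 and 6.40 in the givinostat group. With sorafenib alone it had 8.41, 8.93 and 8.28, against 6.35, 7.49 and 7.16 in the control group. Within each background the arrays did not overlap, although ASS1 spread over more than a log2 unit among the control arrays, and its change was 1.32 ± 0.18 (limma adjusted p = 0.00127), or 0.64 without background correction. PCK2, the mitochondrial enzyme that makes phosphoenolpyruvate, rose by 0.49 ± 0.07. PYCR1 and ALDH18A1, enzymes of proline synthesis, and SHMT2, which interconverts serine and glycine, did not pass, at 0.31 ± 0.12, -0.24 ± 0.10 and 0.18 ± 0.07.

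Amino acid transporters followed with smaller changes. Of 7 tested, 5 rose and none fell, with a median of 0.35: SLC1A5, a neutral amino acid carrier that takes up glutamine, by 0.53 ± 0.08, SLC7A11, the cystine carrier, by 0.52 ± 0.14, SLC38A2 by 0.40 ± 0.09, SLC3A2, the shared heavy chain of several carriers, by 0.35 ± 0.07, and SLC7A1, a carrier of arginine and lysine, by 0.34 ± 0.08. SLC7A5, a partner of SLC3A2, was at 0.11 ± 0.10 and SLC1A4 at 0.22 ± 0.08, neither called. Under median scaling 2 of the 7 rose, with SLC38A2, SLC3A2 and SLC7A1 no longer called. The rises numbered 4 without control array A or C, givinostat array C, sorafenib array A, B or C, or combination array A or C. SLC7A11 was the gene no longer called in each of these.

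Among regulators and secreted factors of the stress response 7 of 15 rose and none fell (median 0.33), and 4 rose under median scaling. Without background correction 7 rose and the median was 0.195. INHBE, a secreted inhibin chain, had 10.14, 9.59 and 9.81 with the combination, against 8.69, 9.08 and 8.95 with givinostat. It had 9.94, 10.08 and 9.79 with sorafenib, against 8.79, 9.13 and 8.31 in the control group. Arrays with and without sorafenib were separate, and INHBE rose by 1.07 ± 0.14 (limma adjusted p = 0.000929). VLDLR, a lipoprotein receptor, had 10.55, 10.66 and 10.69 in the combination group, against 9.94, 9.81 and 9.87 in the givinostat group. Its levels with sorafenib alone were 9.85, 9.89 and 10.18, against 8.93, 8.90 and 8.92 in the control group. Within each background the groups did not overlap, while sorafenib alone reached the levels seen with givinostat alone, and VLDLR rose by 0.90 ± 0.08 (limma adjusted p = 6.51e-05).

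DDIT3, the transcription factor also called CHOP, had 9.32, 9.38 and 9.34 on combination arrays, against 8.66, 8.66 and 8.17 on givinostat arrays. It had 9.39, 9.28 and 8.95 on sorafenib arrays, against 8.61, 8.74 and 8.50 on control arrays. Every array with sorafenib was higher than every array without it, and DDIT3 rose by 0.72 ± 0.11 (limma adjusted p = 0.0021). ATF4 itself had 15.21, 15.28 and 15.36 with the combination, against 14.85, 14.92 and 14.86 with givinostat. Sorafenib alone gave 15.39, 15.47 and 15.50, against 14.97, 14.90 and 15.23 in control cells. The groups were separate within each background and the change was 0.41 ± 0.07 (limma adjusted p = 0.00393). ATF4 was not called (0.25, limma adjusted p = 0.1215) when its detected probes were averaged; its other probes were at -0.20 and 0.53. The related factors ATF3, ATF5 and CEBPG rose by 0.33 ± 0.06, 0.47 ± 0.09 and 0.35 ± 0.07. Other members did not pass: CHAC1, which breaks down glutathione, was at 0.46 ± 0.14 (limma adjusted p = 0.067) and TRIB3, a pseudokinase induced by ATF4, at 0.13 ± 0.09 (limma adjusted p = 0.417).

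**Figure D2:**
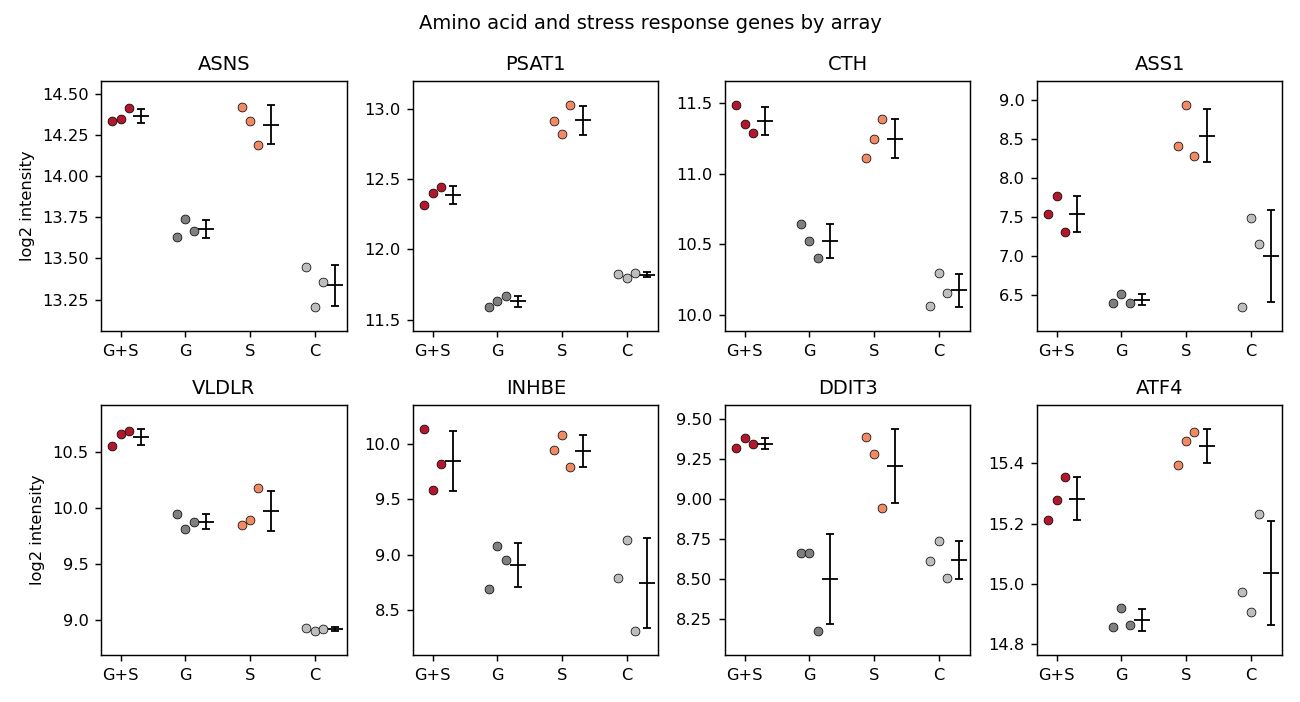
Amino acid and stress response genes on each array. The vertical axis of each panel is log2 normalised intensity, drawn over that gene's own range and not from 0. The groups are the combination (G+S), givinostat (G), sorafenib (S) and control (C), with 1 point per array and the group mean ± SD (n = 3) beside the points. In every panel the G+S points lie above G and the S points above C, with the narrowest separation in ATF4, whose control C array stood at 15.23.

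The cytosolic aminoacyl-tRNA synthetases, which charge tRNAs and include many ATF4 targets, were mixed. Of 18 tested 6 rose (AARS1, GARS1, MARS1, NARS1, WARS1 and YARS1) and 2 fell (KARS1 and VARS1), with a median of 0.10. AARS1 rose by 0.43 ± 0.07, GARS1 by 0.38 ± 0.07 and WARS1 by 0.28 ± 0.06, and VARS1 fell by 0.42 ± 0.08 (SE). Under median scaling 0 rose and 1 fell. Leaving out givinostat array B or C, or combination array B or C, reduced the rises to 3 each, and without sorafenib array C 4 rose and 1 fell. The falls also numbered 1 without control array A, B or C, givinostat array B, sorafenib array A, or combination array A or B. Over the 4 stress lists together 25 of 50 tested genes rose and 2 fell.

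ATF4 and its C/EBP partners bind a composite element that can be written TGATGNAA. Promoter windows of 5 risers that hold a match are shown, from RefSeq on build GRCh38.p14, running 5′ to 3′ on the gene's strand from 250 bases before the annotated start to 30 bases after it, with the match in capitals. They are ASNS (chr7:97872379-97872658, minus strand), SLC7A1 (chr13:29595659-29595938, minus strand), ATF3 (chr1:212565157-212565436, plus strand), AARS1 (chr16:70289477-70289756, minus strand) and MARS1 (chr12:57487818-57488097, plus strand). In AARS1 and MARS1 the match reads on the opposite strand, so the capitals show its reverse complement.
ASNS: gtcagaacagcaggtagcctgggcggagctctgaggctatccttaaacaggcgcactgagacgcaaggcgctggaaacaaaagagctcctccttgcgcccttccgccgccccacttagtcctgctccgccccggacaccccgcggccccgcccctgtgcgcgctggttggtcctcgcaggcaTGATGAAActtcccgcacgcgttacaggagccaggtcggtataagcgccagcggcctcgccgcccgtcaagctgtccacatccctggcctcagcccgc
SLC7A1: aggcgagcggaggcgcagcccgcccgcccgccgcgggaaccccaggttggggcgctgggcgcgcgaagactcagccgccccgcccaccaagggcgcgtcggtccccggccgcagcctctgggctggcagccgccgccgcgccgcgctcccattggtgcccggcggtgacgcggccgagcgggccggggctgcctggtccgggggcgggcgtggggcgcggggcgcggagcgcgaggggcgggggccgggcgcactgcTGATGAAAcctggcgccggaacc
ATF3: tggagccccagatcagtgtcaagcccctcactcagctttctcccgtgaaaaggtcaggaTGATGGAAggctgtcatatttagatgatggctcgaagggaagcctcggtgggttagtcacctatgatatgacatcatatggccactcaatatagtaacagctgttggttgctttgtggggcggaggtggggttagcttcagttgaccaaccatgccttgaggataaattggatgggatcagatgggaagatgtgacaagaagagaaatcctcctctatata
AARS1: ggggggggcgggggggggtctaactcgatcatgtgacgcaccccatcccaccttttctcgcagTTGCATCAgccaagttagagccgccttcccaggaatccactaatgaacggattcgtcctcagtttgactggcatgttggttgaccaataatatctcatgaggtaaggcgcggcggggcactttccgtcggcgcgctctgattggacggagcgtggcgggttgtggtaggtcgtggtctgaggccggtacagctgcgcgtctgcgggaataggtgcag
MARS1: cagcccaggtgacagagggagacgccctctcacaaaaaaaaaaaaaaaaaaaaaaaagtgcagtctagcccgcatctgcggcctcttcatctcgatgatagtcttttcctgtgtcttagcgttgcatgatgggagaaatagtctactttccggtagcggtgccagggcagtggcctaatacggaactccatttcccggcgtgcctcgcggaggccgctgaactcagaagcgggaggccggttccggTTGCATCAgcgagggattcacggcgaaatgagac

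Searched on both strands over 300 bases (250 before the start and 50 after), TGATGNAA occurred in 3.67% of all 27305 promoters of the table. It occurred in 10 of the 41 tested stress genes that had an entry: in 7 of 21 risers, in 3 of 19 genes not called and in 0 of 1 gene that fell. SLC3A2 and NARS1 were the other risers with a match, and CHAC1, IARS1 and TARS1 had one without passing the test. PSAT1, CTH, ASS1, DDIT3, ATF4 and VLDLR had none in this window. The stress lists were chosen as genes of a response that ATF4 drives, so a share above that of all promoters was built into the choice. The share among promoters of all tested genes was not taken. A match describes the letters of the window and is not evidence that a factor was bound there.

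Of 15 tested immediate early genes 4 fell (FOS, FOSL1, JUNB and EGR1) and 3 rose (JUN, JUND and KLF6), with a median of -0.17, or -0.08 without background correction. FOS had 7.20, 5.95 and 6.58 with the combination, against 9.17, 8.91 and 8.77 with givinostat. It had 5.84, 6.22 and 5.72 with sorafenib alone, against 7.48, 6.85 and 7.21 in the control group. Within each background the arrays with sorafenib were all lower, 1 combination array and 2 sorafenib arrays were not above background, and FOS fell by 1.81 ± 0.24 (SE; limma adjusted p = 0.00105). FOS entered the test only through the groups without sorafenib, where it was high, so its p-values carry that selection. Without background correction the change was -0.88 (limma adjusted p = 7.07e-05). The change was -2.37 ± 0.27 for the combination minus givinostat and -1.25 ± 0.27 for sorafenib minus control, a difference of -1.12 ± 0.38 that did not pass (limma adjusted p = 0.326).

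EGR1, a zinc finger transcription factor, had 7.38, 7.29 and 7.11 in the combination group, against 9.56, 9.37 and 9.13 in the givinostat group. It had 6.57, 5.75 and 6.18 with sorafenib, against 7.23, 7.19 and 6.72 in the control group, and 2 of the sorafenib arrays were not above background. The groups were separate within each background, although the combination arrays lay at about the control level. EGR1 fell by 1.49 ± 0.22 (SE; limma adjusted p = 0.00178), and its change was -0.82 without background correction. The changes within the backgrounds, -2.09 ± 0.20 and -0.88 ± 0.20, differed by -1.21 ± 0.28 without passing (limma adjusted p = 0.176). The EGR1 promoter is shown because it holds both matches to the CArG box, the element bound by serum response factor, found among the 16 tested immediate early and ERK feedback genes with an entry. The capitals mark the matches in the RefSeq window on GRCh38.p14 (chr5:138465229-138465508, plus strand), again with 250 bases before the start and 30 after.
EGR1: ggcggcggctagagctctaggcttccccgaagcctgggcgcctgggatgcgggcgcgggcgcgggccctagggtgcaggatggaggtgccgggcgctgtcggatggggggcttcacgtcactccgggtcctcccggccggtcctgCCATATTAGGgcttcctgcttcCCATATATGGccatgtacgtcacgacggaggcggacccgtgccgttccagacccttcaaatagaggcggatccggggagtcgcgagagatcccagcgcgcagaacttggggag

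A CArG box occurred in 1.29% of all promoters of the table, and FOS had none in its window. FOSL1, a FOS relative, fell by 0.47 ± 0.12 and JUNB by 0.32 ± 0.09 (SE). The number of immediate early genes that fell was 2 when control array C, givinostat array B or C, or combination array A or C was left out, and 3 without sorafenib array C. JUNB stayed called only when control array B or sorafenib array C was the one left out. The rises numbered 2, with KLF6 not called, unless control array A, sorafenib array C or combination array B was the one left out.

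JUN, the main partner of FOS, moved the other way. It had 13.20, 13.41 and 13.51 with the combination, against 12.89, 12.71 and 12.63 with givinostat. With sorafenib alone it had 12.77, 12.71 and 12.38, against 11.83, 11.98 and 12.13 in control cells. Arrays with sorafenib were higher in both backgrounds without overlap, and JUN rose by 0.64 ± 0.09 (limma adjusted p = 0.00158). JUND had 15.70, 15.80 and 15.61 in the combination group, against 15.32, 15.29 and 15.36 in the givinostat group. Its levels were 15.66, 15.63 and 15.70 with sorafenib, against 15.12, 15.03 and 15.20 in the control group. All arrays with sorafenib exceeded all without it, and the change was 0.46 ± 0.06 (limma adjusted p = 0.00128).

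Among ERK feedback and ETS genes 3 of 9 tested fell and none rose, with a median of -0.35, or -0.15 without background correction. ETV5, an ETS factor downstream of ERK, had 8.97, 9.12 and 9.01 with the combination, against 9.33, 9.60 and 9.64 with givinostat. It had 7.51, 7.86 and 7.13 with sorafenib, against 8.18, 8.43 and 7.98 in the control group. The groups did not overlap within a background, and ETV5 fell by 0.59 ± 0.12 (SE; limma adjusted p = 0.0122). Without background correction its change was -0.38, and that of DUSP2 was -0.24. A dimmer ETV5 probe was at -0.07, and with the probes averaged ETV5 was not called (-0.33, limma adjusted p = 0.0760). DUSP5, an ERK phosphatase, fell by 0.36 ± 0.07 and DUSP2 by 0.63 ± 0.16 (SE). The DUSP2 call was lost, with adjusted p from 0.0534 to 0.0736, when control A, givinostat A or B, sorafenib A or B, or combination A or C was left out, and DUSP2 was above background on none of the sorafenib arrays. DUSP2 entered the test only through the control group, where it was highest, so its call carries that selection. DUSP6, often read as a gauge of ERK output, was at -0.44 ± 0.21 (limma adjusted p = 0.215), and MYC at -0.03 ± 0.08 (limma adjusted p = 0.846). By limma none of the 10 tested kinases that sorafenib binds or that act below RAF passed over both backgrounds, with 3 at an unadjusted p under 0.05 (ARAF, KIT, PDGFRA, FGFR1, DDR1, DDR2, MAP2K1, MAP2K2, MAPK3 and MAPK11), with changes from -0.30 to 0.25. MAPK11 passed for sorafenib minus control (0.53, limma adjusted p = 0.0289), and a dimmer MAPK3 probe, at 0.26, passed over both backgrounds in the fit of all probes (limma adjusted p = 0.0474). SPRY2, BRAF, KDR, FLT1, FLT4, PDGFRB, FLT3, RET and MAPK14 had no probe that entered the test.

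Keratin-associated protein genes, which encode matrix proteins of hair, held the largest falls. Of 26 listed only 8 were tested, and of these 4 fell and 1 rose. The median was -0.77 (-0.41 without background correction), and the 4 that fell were called in each background separately. KRTAP9-4 had 6.07, 6.64 and 6.10 on the combination arrays, against 8.05, 8.45 and 8.21 on the givinostat arrays. It had 7.08, 7.28 and 6.61 on the sorafenib arrays, against 8.59, 8.62 and 8.66 on the control arrays. No array with sorafenib reached any array without it, and KRTAP9-4 fell by 1.80 ± 0.14 (SE; limma adjusted p = 2.77e-05). KRTAP9-3 had 6.23, 6.07 and 5.88 with the combination, against 7.54, 8.10 and 7.76 with givinostat. Its levels were 6.82, 5.86 and 5.72 with sorafenib, against 8.18, 8.41 and 8.27 in the control group. The groups were again separate, with 1 array above background in each sorafenib-containing group, and KRTAP9-3 fell by 1.95 ± 0.17 (SE; limma adjusted p = 6.51e-05).

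KRTAP9-8 was above background on all 6 arrays without sorafenib and on none of the 6 with it, and was at least 2.30-fold lower with sorafenib against the background limit (limma adjusted p = 1.72e-05). KRTAP9-8 and KRTAP9-3 entered the test only through the groups without sorafenib, where they were high, so their p-values carry that selection. KRTAP1-5 had 7.06, 6.20 and 6.48 with the combination, against 7.90, 7.94 and 7.67 with givinostat. It was not above background on any sorafenib array and lay at 6.56, 7.11 and 6.57 on the control arrays, at least 1.42-fold lower with sorafenib alone. Without background correction the changes were -0.86 for KRTAP9-3, -0.89 for KRTAP9-4, -0.59 for KRTAP9-8 and -0.53 for KRTAP1-5, and each of these genes was still called lower. The KRTAP9 genes are near-identical copies, so their probes may read each other's transcripts, which was not tested. KRTAP4-8 rose by 0.53 ± 0.13, a call that was lost without control array B or C, givinostat array C, sorafenib array B or combination array B.

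**Figure D3:**
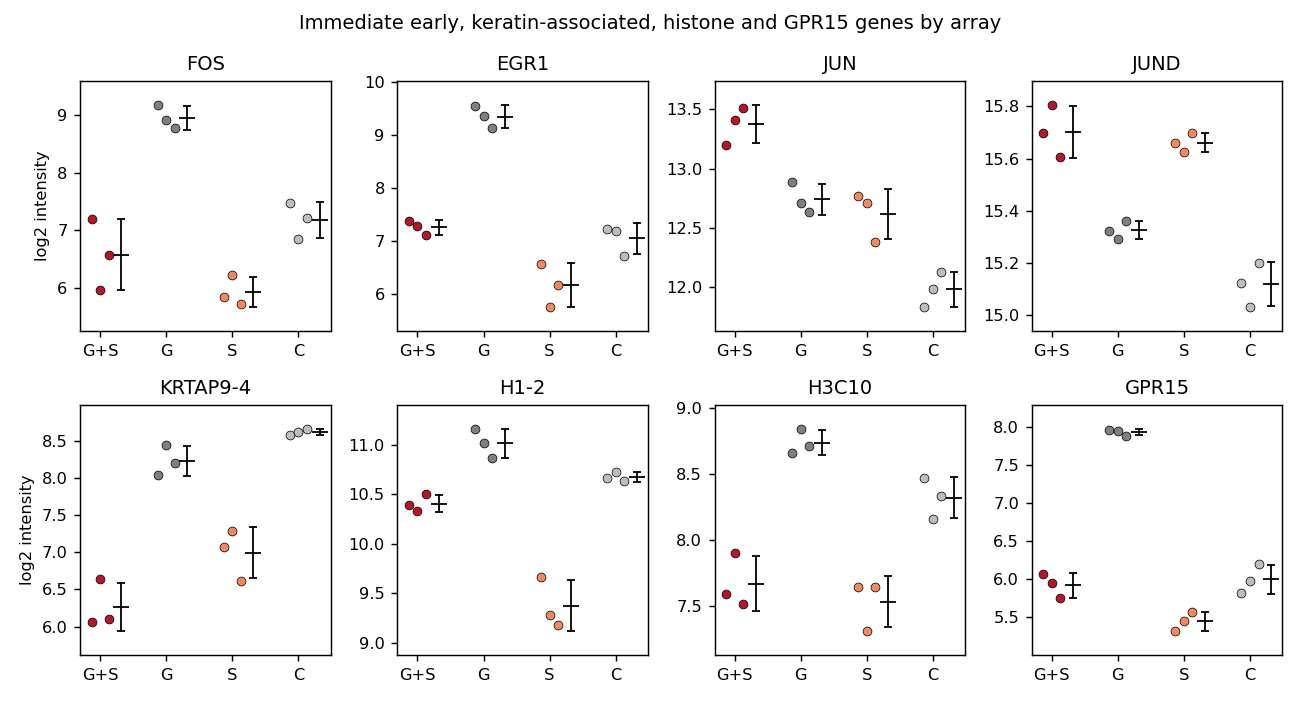
Immediate early, keratin-associated, histone and GPR15 genes on each array. The vertical axis of each panel is log2 normalised intensity over that gene's own range, and groups and marks are as in the plot of stress response genes. FOS, EGR1, KRTAP9-4, H1-2 and H3C10 are lower in G+S than in G and in S than in C, JUN and JUND are higher, and the GPR15 points stand near 8 in G alone.

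Of 43 tested histone genes 20 fell, 23 were not called and none rose. Over the list 39 had a negative change, and the median was -0.31 (-0.23 for the combination minus givinostat and -0.45 for sorafenib minus control), or -0.18 without background correction. The falls covered linker histone H1-2 and core histones of the 4 families (H2A, H2B, H3 and H4), while the variant genes H3-3A, H3-3B, H2AZ1 and H2AZ2 were between -0.06 and 0.01 and did not pass. H2AJ, also a replication-independent variant, was among the genes that fell. H1-2 had 10.39, 10.33 and 10.50 with the combination, against 11.15, 11.02 and 10.86 with givinostat. It had 9.66, 9.28 and 9.18 with sorafenib, against 10.66, 10.72 and 10.63 in the control group. All arrays with sorafenib were below all without it, and H1-2 fell by 0.95 ± 0.13 (SE; limma adjusted p = 0.00123). H3C10 had 7.59, 7.90 and 7.51 in the combination group, against 8.66, 8.84 and 8.71 in the givinostat group. Its levels were 7.64, 7.31 and 7.64 with sorafenib, against 8.47, 8.16 and 8.33 in the control group. Arrays with sorafenib again lay wholly below the others, and H3C10 fell by 0.93 ± 0.10 (SE; limma adjusted p = 0.000232).

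H2AJ fell by 0.96 ± 0.13, H4C8 by 0.73 ± 0.09 and H2AC18 by 0.70 ± 0.08 (SE). Without background correction the changes of H2AJ and H3C10 were -0.52 and -0.55. Under median scaling 13 of the 43 fell, and 16 fell without sorafenib array C. Histone genes are near-identical copies, so a probe may read several of them, and most of their transcripts lack the poly(A) tail on which labelling of this kind usually starts. Both points bear on the levels of single histone genes and were not tested.

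Of 42 tested genes of the G1/S step and of replication, 3 passed, all lower (7.14%, against 3.37% of all genes). The list's median was -0.11, and 6 fell without background correction. RRM2, the regulated subunit of ribonucleotide reductase, had 12.07, 12.46 and 12.09 with the combination, against 13.06, 12.83 and 13.14 with givinostat. It had 13.22, 12.95 and 13.20 with sorafenib, against 13.87, 13.55 and 13.98 in the control group. Within each background the arrays were separate, and RRM2 fell by 0.74 ± 0.10 (SE; limma adjusted p = 0.00127). POLA1, the catalytic subunit of DNA polymerase alpha, fell by 0.49 ± 0.11 (SE). FEN1, a flap endonuclease, fell by 0.30 ± 0.08 (SE), a call that held only when sorafenib array A or C was the one left out. SLBP, which binds the stem-loop of histone transcripts, was at -0.26 ± 0.07 (limma adjusted p = 0.0557). By limma none of 36 G2/M genes passed, with 6 at an unadjusted p under 0.05 and a median of -0.03, and MKI67, a proliferation marker, was at -0.16 ± 0.13 (limma adjusted p = 0.497).

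Of 41 tested ribosome biogenesis genes 19 fell and none rose, 40 had a negative change, and the median was -0.28 (-0.29 for the combination minus givinostat and -0.27 for sorafenib minus control). NOP16, a nucleolar assembly factor, had 10.68, 10.61 and 10.61 in the combination group, against 11.17, 11.17 and 11.09 in the givinostat group. It had 11.34, 11.17 and 11.19 with sorafenib, against 11.84, 12.04 and 11.71 in the control group. The arrays did not overlap within either background, and NOP16 fell by 0.57 ± 0.07 (SE; limma adjusted p = 0.000578). PPAN, PA2G4 and UTP15 fell by 0.41 ± 0.08, 0.41 ± 0.07 and 0.30 ± 0.06 (SE). Leaving out sorafenib array B reduced the falls to 11, 16 fell without sorafenib array C, and 13 fell under median scaling.

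Of 28 tested proteasome subunits all 28 had a negative change (median -0.21), and 6 fell: PSMC2, PSMD1, PSMD2, PSMD3, PSMD8 and ADRM1. PSMD2, a base subunit of the regulatory particle, fell by 0.40 ± 0.09 and PSMD3, a lid subunit, by 0.37 ± 0.08 (SE). The number that fell was 3 without control array A or C, 4 without sorafenib array C, 4 under median scaling and 14 without background correction. Of 26 tested heat shock and chaperonin genes 8 fell and none rose (median -0.21), with FKBP4, an HSP90 co-chaperone, down by 0.44 ± 0.09 and the chaperonin subunit CCT4 by 0.41 ± 0.07 (SE). The number that fell was 4 or 5 whichever single array was left out, and 5 without sorafenib array C. In the endoplasmic reticulum 2 of 18 tested chaperone genes fell and none rose (median -0.16): HSPA5, the chaperone BiP, by 0.35 ± 0.07 and DNAJC3 by 0.60 ± 0.14 (SE), which was -0.25 without background correction. HSPA5 fell while DDIT3 rose, and the cause of either change was not tested.

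**Figure D4:**
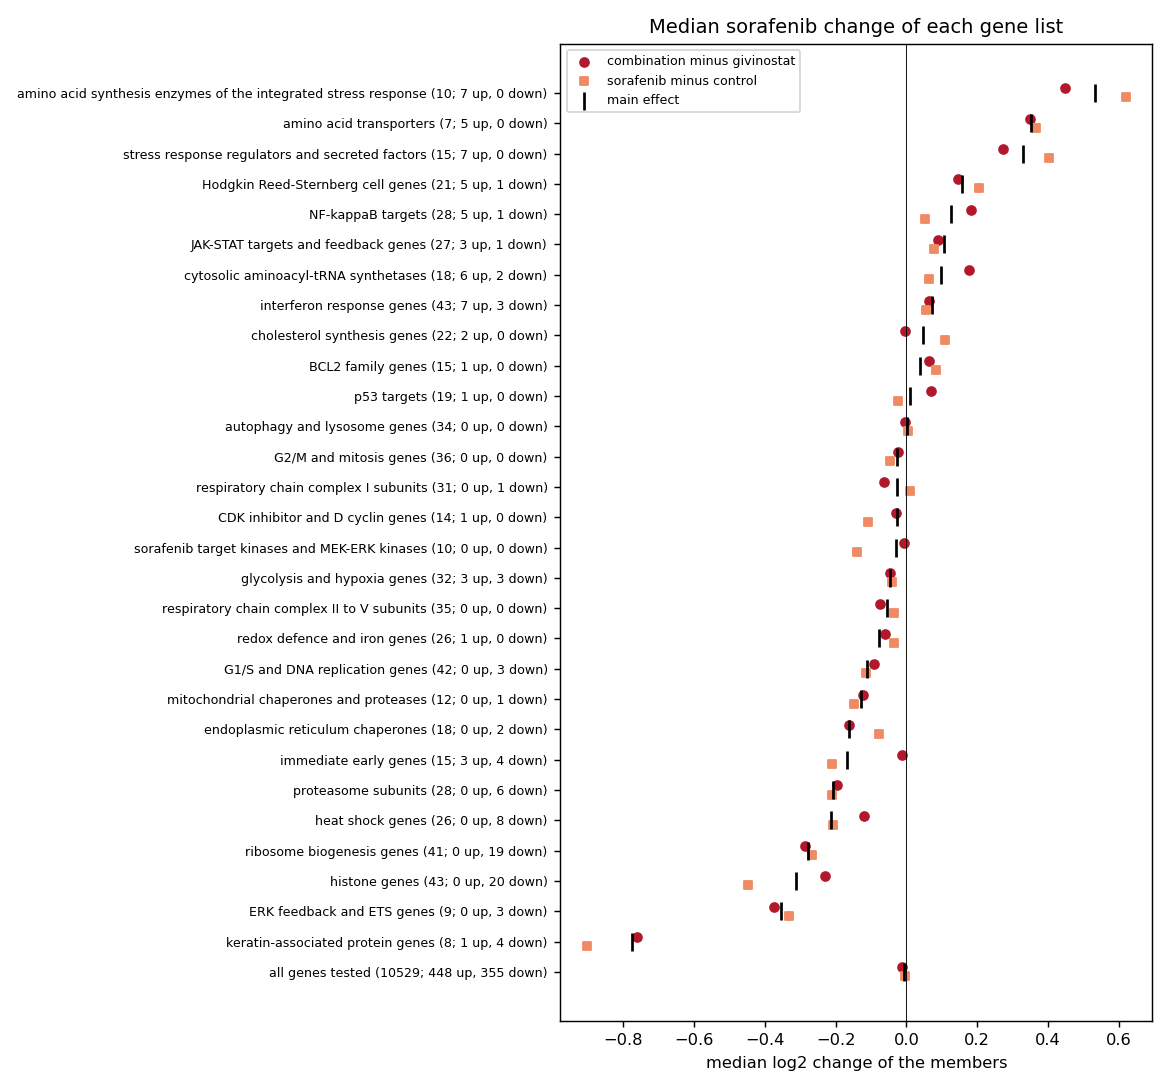
Median sorafenib change of each gene list with at least 7 tested members. The horizontal axis is the median log2 change of the members, as a black bar over both backgrounds, a red circle for the combination minus givinostat and an orange square for sorafenib minus control. Labels give the number tested, higher (up) and lower (down). The amino acid synthesis enzymes stand highest at 0.53, keratin-associated protein genes lowest at -0.77, and all genes tested lie at -0.01.

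Immune genes of Hodgkin cells rose in part. Of 21 tested Hodgkin Reed-Sternberg cell genes 5 rose (CD80, FSCN1, CCL17, CCL22 and TRAF1) and 1, JUNB, fell, with a median of 0.16. CCL22, a chemokine that draws CCR4-bearing T cells, had 8.78, 8.80 and 8.60 with the combination, against 8.05, 8.45 and 7.85 with givinostat. It had 8.85, 9.47 and 9.33 with sorafenib, against 8.50, 8.67 and 8.23 in the control group. The groups did not overlap within a background, and CCL22 rose by 0.68 ± 0.13 (limma adjusted p = 0.00822). CCL17, which acts on the same receptor, rose by 0.37 ± 0.07 and TRAF1, an adaptor of CD30 and CD40, by 0.39 ± 0.07. TNFRSF8, which encodes CD30, was at -0.32 ± 0.15 (limma adjusted p = 0.211). The rises were 3 when givinostat array B was left out and 6 without sorafenib array C, and under median scaling 1 gene rose and 1 fell, with CCL17, TRAF1 and FSCN1 no longer called. FSCN1, which bundles actin, was also not called without control array B or givinostat array A or B.

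Among 28 tested NF-kappaB targets, which share CCL17, CCL22 and TRAF1 with the list above, 5 rose and 1 fell (median 0.13). The one that fell was CXCL8, the neutrophil chemokine interleukin 8, by 0.59 ± 0.11 (SE), although it was above background on only 1 combination and 1 sorafenib array, against 2 givinostat and 3 control arrays. CXCL8 entered the test only through the control group, where it was highest, so its call carries that selection. Its change was -0.22 without background correction, where 9 targets rose. Without givinostat array C 3 targets rose, and under median scaling 1 rose and 1 fell. Of 27 tested JAK-STAT targets 3 rose (11.1%, against 4.25% of all genes) and 1 fell (3.70%, against 3.37%). PIM2, a serine/threonine kinase, fell by 0.42 ± 0.07 and FCER2, which encodes CD23, rose by 0.39 ± 0.07. The median of that list was 0.11, but -0.01 under median scaling, where FCER2 was not called.

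The interferon response genes split into 7 that rose and 3 that fell among 43 tested, with a median of 0.07 that became -0.00 under median scaling. ISG20, an exonuclease against viral RNA, had 11.21, 11.20 and 11.07 with the combination, against 10.55, 10.63 and 10.43 with givinostat. It lay between 11.91 and 12.04 on the 3 sorafenib arrays, against 11.45, 11.61 and 11.49 in control cells. The arrays were separate within each background, and ISG20 rose by 0.55 ± 0.07 (limma adjusted p = 0.000566). IFIT3, OAS1 and RIGI, an antiviral effector and 2 sensors of foreign RNA, rose by 0.45 ± 0.09, 0.31 ± 0.07 and 0.36 ± 0.08, while CXCL10, an interferon-induced chemokine, fell by 0.54 ± 0.12 (SE). Under median scaling 3 rose and 2 fell, with OAS1 and RIGI no longer called. Leaving out control array A or B reduced the rises to 4, and the falls numbered 1 without any of 9 arrays (control A, B or C, givinostat A, B or C, sorafenib A, or combination B or C).

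CD44 and ULBP1, named by the rule but in none of the immune lists above, also rose. CD44, the hyaluronan receptor, had 13.66, 13.42 and 13.61 on combination arrays, against 12.85, 12.90 and 12.78 on givinostat arrays. It had 13.56, 13.66 and 13.57 on sorafenib arrays, against 12.91, 12.93 and 12.97 on control arrays. All arrays with sorafenib were higher than all without it, and CD44 rose by 0.69 ± 0.06 (limma adjusted p = 6.51e-05). ULBP1, a stress-induced ligand of the NKG2D receptor of natural killer cells, had 10.91, 11.24 and 11.38 with the combination, against 10.12, 10.22 and 10.19 with givinostat. Its levels were 10.41, 10.41 and 10.21 with sorafenib, against 9.53, 9.41 and 9.73 in the control group. Within each background the groups did not overlap, and ULBP1 rose by 0.89 ± 0.09 (limma adjusted p = 0.000202).

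PMAIP1, the BH3-only protein NOXA, which opposes MCL1, was the only 1 of 15 tested BCL2 family genes to pass. That is 6.67%, against 7.63% of all genes, so the count is no result about the family. It had 10.86, 11.03 and 11.21 with the combination, against 10.16, 10.14 and 10.41 with givinostat. It had 10.70, 10.57 and 10.84 with sorafenib, against 10.09, 10.30 and 10.22 in control cells. Every array with sorafenib was higher than every array without it, and PMAIP1 rose by 0.65 ± 0.09 (limma adjusted p = 0.0016). BCL2L11, the BH3-only protein BIM, was at -0.38 ± 0.17 (limma adjusted p = 0.171), and MCL1 at -0.20 ± 0.08 (limma adjusted p = 0.124). When the probes of a gene were averaged MCL1 was called at -0.35 (limma adjusted p = 0.0221). CDKN1A, the cell cycle inhibitor p21, was at -0.25 ± 0.09 (limma adjusted p = 0.101), and at -0.46 (limma adjusted p = 0.0130) with its probes averaged.

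C4BPB had 9.57, 9.46 and 9.37 in the combination group, against 8.25, 8.60 and 8.16 in the givinostat group. It had 10.03, 10.23 and 9.96 with sorafenib, against 8.88, 9.25 and 8.60 in the control group. The groups were separate within each background, with nearly equal changes of 1.13 ± 0.16 and 1.17 ± 0.16, and C4BPB rose by 1.15 ± 0.11 over both (limma adjusted p = 0.000121). CYP4Z1 rose by 1.12 ± 0.13, SPINK13, a protease inhibitor, by 0.98 ± 0.10, COLQ, the collagen tail of acetylcholinesterase, by 0.92 ± 0.12, and CRTAC1, a secreted matrix protein, by 0.91 ± 0.16. Without background correction these 4 changes were 0.56, 0.56, 0.55 and 0.46. MAP2K6, the kinase that activates p38, was above background on 1 combination array and 3 sorafenib arrays and on no array without sorafenib, and was at least 1.16-fold higher (limma adjusted p = 0.00412). MAP2K6 entered the test only through the sorafenib group, where it was high, so its p-value carries that selection.

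TPRG1 had 10.86, 10.99 and 10.85 with the combination, against 12.12, 12.25 and 12.26 with givinostat. It had 10.56, 10.51 and 10.26 with sorafenib, against 11.13, 11.27 and 11.33 in control cells. Arrays with sorafenib were all lower, and TPRG1 fell by 1.05 ± 0.10 (SE; limma adjusted p = 0.000101). MIR503HG, a long noncoding transcript that hosts the gene of a microRNA, had 12.11, 12.13 and 11.99 with the combination, against 13.09, 12.85 and 13.25 with givinostat. Its levels were 10.45, 9.98 and 9.93 with sorafenib, against 11.84, 11.40 and 12.15 in the control group. The arrays did not overlap within a background, and MIR503HG fell by 1.33 ± 0.16 (SE; limma adjusted p = 0.000517). GZMB, the protease granzyme B, fell by 0.80 ± 0.11 (SE), and its change was -0.38 without background correction.

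Few genes of several other programs passed. By limma none of 34 tested autophagy and lysosome genes passed (median 0.00, 8 at an unadjusted p under 0.05), nor did any of 35 subunits of respiratory complexes II to V (median -0.05, 4 at an unadjusted p under 0.05). Of 31 subunits of complex I 1 passed (NDUFB4, list median -0.03), or 3.23%, against 7.63% of all genes. The NDUFB4 call was lost without 10 of the 12 arrays, all but givinostat C and combination A. Glycolysis and hypoxia genes gave 3 rises (ENO2, NDRG1 and P4HA2) and 3 falls (SLC2A1, ALDOA and ANKRD37) among 32 tested. These are 9.38% each, against 4.25% and 3.37% of all genes. SLC2A1, the glucose carrier GLUT1, fell by 0.34 ± 0.07 (SE). The falls numbered 1 without control array C or sorafenib array B. P4HA2 was not called with probes averaged, and under median scaling 1 gene rose and 1 fell. CAT, which encodes catalase, was the 1 of 26 redox and iron genes to pass (3.85%, against 7.63% of all genes). CAT rose by 0.44 ± 0.09, but was not called under median scaling. These counts cover genes that passed the test. A gene that did not pass may still have changed by less than 3 arrays per group can show.

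Sorafenib minus control and the combination minus givinostat share no array, so the 2 backgrounds give separate estimates of the sorafenib effect. They are not fully independent, because all arrays were normalized together and both changes were tested against the same estimate of spread between arrays. The labels also leave it unstated whether the arrays came from separate cultures, so agreement between the backgrounds is not independent replication. Sorafenib alone changed 479 genes (4.55%), of which 313 rose (2.97%) and 166 fell (1.58%). The combination changed 141 genes against givinostat (1.34%), of which 89 rose (0.845%) and 52 fell (0.494%). In both backgrounds 62 genes (0.589%) were called in the same direction, 40 higher (0.38%) and 22 lower (0.209%), and no gene was called in opposite directions. These 62 genes were 44.0% of the calls with givinostat and 12.9% of the calls without it. Among the 141 genes called with givinostat 125 (88.7%) changed in the same direction without it, and among the 479 called without givinostat 409 (85.4%) changed in the same direction with it, against 60.8% of all genes.

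The size of the change was smaller in the background that had not chosen the genes, in both directions of the comparison. Genes that rose with sorafenib alone had a median of 0.22 with givinostat present and 0.54 in their own background, and genes that fell had -0.25 and -0.56. Genes that rose in the combination against givinostat had a median of 0.45 without givinostat and 0.65 in their own background, and genes that fell had -0.34 and -0.63. The own-background values are those the calls were made on, so they are larger by choice. Across all genes, which are not independent replicates, the changes in the 2 backgrounds had a Pearson correlation of 0.355 and a Spearman correlation of 0.312. Of the 803 genes called over both backgrounds, 427 passed in neither background alone, 265 passed without givinostat only, 49 with it only and 62 in both. Arrays with and without sorafenib did not overlap in either background for 562 of the 803, and for 743 of all genes (7.06%).

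The 62 included ASNS, PSAT1, CTH, INHBE, VLDLR and DDIT3 among the stress genes, FOS, EGR1 and JUN, the 4 keratin-associated protein genes that fell, and H1-2, H2AC18, H2AJ, H3C10 and H4C8 among the histones. NOP16, RRM2, ISG20, CD44, PMAIP1, ULBP1 and C4BPB were also among them. GPR15 was counted among them too, since it passed for sorafenib minus control (limma adjusted p = 0.0254). Its levels in the sorafenib and control groups were below background, so no change in GPR15 could be measured there. The number called in both backgrounds depended on single arrays: it was 21, 39 and 29 without givinostat array A, B or C, 28, 23 and 26 without combination array A, B or C, and 40 without control array C, while it was 63 without sorafenib array C.

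**Figure D5:**
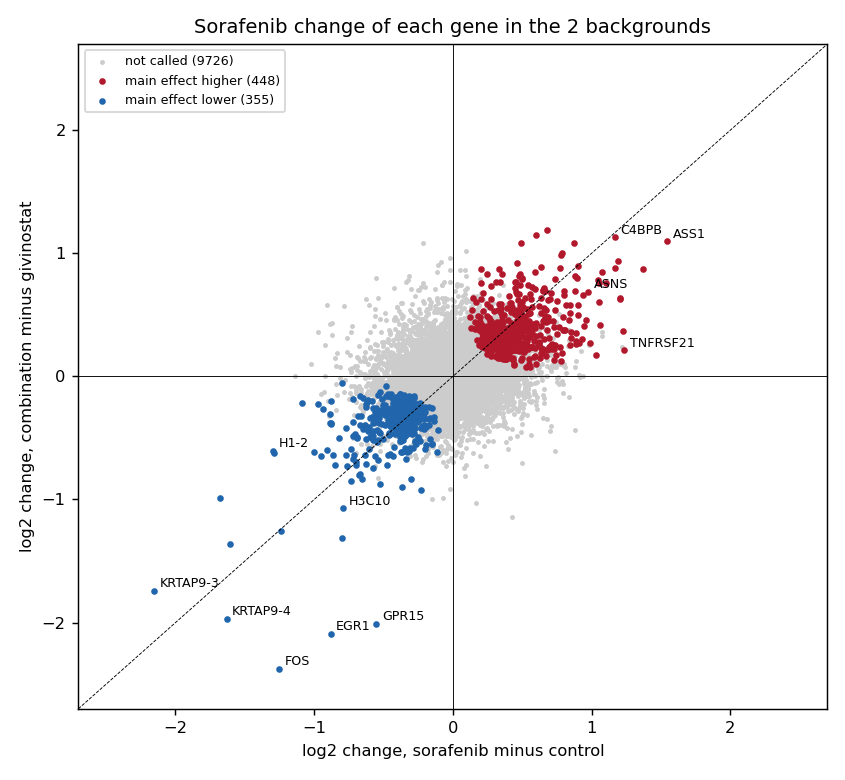
Sorafenib change of each of the 10529 genes in the 2 backgrounds. The horizontal axis is the log2 change of sorafenib minus control and the vertical axis that of the combination minus givinostat. Red points are the 448 genes that rose over both backgrounds, blue points the 355 that fell and grey points the rest, and the dashed line marks equal changes. GPR15, EGR1 and FOS lie below the dashed line and TNFRSF21 lies right of it near the horizontal axis.

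Whether the sorafenib effect differed between the backgrounds was tested as the interaction of the drugs, and 2 genes passed (0.019%), GPR15 and RRAD, while 1151 genes (10.9%) had an unadjusted p under 0.05. GPR15, a chemoattractant receptor of lymphocytes, had 6.07, 5.94 and 5.75 with the combination, against 7.96, 7.95 and 7.88 with givinostat. It had 5.32, 5.45 and 5.57 with sorafenib, against 5.82, 5.98 and 6.20 in the control group. It was above background on the 3 givinostat arrays only, and was at least 3.45-fold lower in the combination group than in the givinostat group (limma adjusted p = 8.82e-06), while without givinostat both groups were below background. Over both backgrounds GPR15 was at least 1.71-fold lower with sorafenib (limma adjusted p = 0.00493). GPR15 entered the test only through the givinostat group, where it was high, so its p-values carry that selection. Its interaction passed (limma adjusted p = 0.015), but no size is given, because the sorafenib minus control difference was taken between groups below background.

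RRAD, a RAS-related GTPase, was not called over both backgrounds (-0.28 ± 0.14, limma adjusted p = 0.233). It averaged 10.40 ± 0.10 with the combination, against 10.23 ± 0.03 with givinostat, and 11.22 ± 0.09 with sorafenib, against 11.96 ± 0.04 in control cells (SD, n = 3 each). Its change was 0.18 ± 0.09 in the givinostat background and -0.74 ± 0.09 without givinostat, and the interaction was 0.92 ± 0.12 (limma adjusted p = 0.0328). Besides GPR15, the called genes with the smallest interaction p were, in alphabetical order, CAV1, KIAA1217, TLE2 and TNFRSF21. The calls over both backgrounds that put TLE2 and KIAA1217 here were lost on leaving out any of 9 and 6 single arrays, respectively. CAV1, which encodes caveolin 1, had 12.83, 12.74 and 12.75 with the combination, against 12.61, 12.71 and 12.49 with givinostat, and 12.06, 12.09 and 12.01 with sorafenib, against 11.12, 11.11 and 10.83 in the control group. TNFRSF21, a death receptor, had 9.46, 9.56 and 9.72 with the combination, against 9.34, 9.31 and 9.45 with givinostat, and 8.58, 8.56 and 8.47 with sorafenib, against 7.10, 7.59 and 7.21 in the control group. Both genes lay higher in all arrays with givinostat than in any array without it, and their sorafenib changes of 0.17 and 0.21 with givinostat stood beside 1.03 and 1.23 without it. Their interactions, -0.86 ± 0.14 and -1.02 ± 0.17, did not pass (limma adjusted p = 0.107 for both). Over both backgrounds CAV1 was not called under median scaling, and the change of TNFRSF21 was 0.72 ± 0.16, or 0.43 without background correction.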

How the data were processed

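Biotin-labelled cRNA of 12 HDLM-2 samples was hybridised to Illumina HumanHT-12 V3 arrays, and the submitters' processing notes name BeadStudio. The deposited non-normalized file holds a bead-averaged intensity per probe (48803 probes, 69.7 to 72773) and, per the file headers, a detection value. That deposited value is a fraction which rose with intensity (lowest Spearman correlation 0.992), and was read as 1 minus the detection p. The authors' processed file holds quantile-normalized intensity, since its sorted values lay within 0.217 units (99th percentile of the gaps) of the quantile means of the other file.

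In limma 3.58.1 the non-normalized intensity was background-corrected (normexp, background from the detection p, offset 16), quantile normalized and log2 transformed, under R 4.3.3 with statmod 1.5.0. A probe was kept (16927 were) where some group had a detection p under 0.05 on each of its 3 arrays. Of these 14039 had 1 gene symbol in the platform annotation, and 2888 without one were left out, of which 97 passed the test. The brightest probe stood for each of 10529 genes. Of 2759 genes with several detected probes 236 had some called and others not, and 1 had probes called in opposite directions.

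The main effect came from an additive model of sorafenib and givinostat over 12 arrays (9 residual and 4.12 prior degrees of freedom). Changes within a background and the interaction came from 4 group means (8 residual and 4.01 prior). Tests were two-sided, with Benjamini-Hochberg adjustment over 10529 genes. Where no array of a side was above background, the fold was taken against the array's lowest signal above background and is written "at least". Genes were named by rule: the 15 largest rises and 15 largest falls with separate arrays, up to 4 members of each of 34 lists, the 5 smallest p each way, the 5 smallest interaction p among called genes, and a fixed set with FOS, EGR1, ASNS, ATF4 and the target kinases. Other list members are named with their list's count, and RRAD was named after its value was seen. The comparison and the lists were chosen with earlier results of these data known. The alternatives were other background corrections, scalings, filters, probe rules and models, and leaving out each array. The scripts were tested on simulated data.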

Additional observations from a re-analysis of the deposited data

Results flagged for a closer look

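GPR15 and RRAD stood out because the sorafenib change differed between the 2 backgrounds by the interaction test. For GPR15 the combination minus givinostat change less the sorafenib minus control change was computed as -1.456 (limma adjusted p = 0.015). That number is no measured size, since 9 of the 12 arrays, all but the givinostat ones, were not above background. The 3 combination arrays lay below the 3 givinostat arrays, by at least 3.45-fold, and no change could be measured without givinostat. For RRAD the same difference was 0.9161 (limma adjusted p = 0.0328), with a change of 0.18 in the givinostat background and -0.74 without givinostat. The number of genes passing the interaction test ranged from 0 to 2 when single arrays were left out.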

How the results depend on the processing

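The counts of 803 genes changed over both backgrounds, 14 changed at least 2-fold, 62 called in both backgrounds and 2 with an interaction depended on the processing. Without background correction, and with the authors' processed values, they were 1060, 1, 112 and 8. With median scaling they were 379, 15, 27 and 1. Without the detection filter they were 455, 14, 28 and 1, over 18852 genes. For genes detected on all 12 arrays they were 815, 5, 59 and 1, and with the mean of the detected probes 855, 14, 77 and 1. With the array letter as a replicate block they were 722, 14, 61 and 0; same-letter deviations correlated between -0.06 and 0.25, 5 of 18 such pairs were over 0.1, and the same letter correlated best in 19 of 36 comparisons, so the letters were not treated as pairing the arrays. Array weights gave 874, 15, 101 and 2. Dropping givinostat as a covariate left 23 changed genes and 5 of at least 2-fold, and the main effect from 4 group means gave 906 and 14. Leaving out single arrays gave 482 to 678, 13 to 16, 21 to 63 and 0 to 2. Of the 803 calls 755 remained without background correction and 3 had the opposite sign with the mean of the detected probes. Among 93 named genes that were called, 17 kept the call in every alternative and 81 with each array left out, 25 lost it under median scaling and 76 without the covariate. No named call reversed. Values near background limit the weakly expressed genes FOS, EGR1, GPR15, MAP2K6, CXCL8 and the keratin-associated protein genes. The causes of these shifts were not tested.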
